A study of Mus musculus with 6 samples.

Results

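Prdm14 and Prdm1 encode zinc-finger proteins with a PR domain that direct the choice of the germ line in the mouse embryo. The open chromatin described here is the set of deposited ATAC-seq intervals whose midpoint has an end of Prdm14 or Prdm1 as its nearest protein-coding gene end within 100 kb, by RefSeq gene positions on mm10. This rule uses position only and selected 76 of 258093 intervals over 3 peak lists, of which 32 belong to Prdm14 and 44 to Prdm1. Intervals sharing 1 bp or more, within or between lists, were joined into regions, giving 15 regions for Prdm14 and 24 for Prdm1 among 131410 in all.

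ATAC-seq inserts sequencing adapters into accessible DNA with a transposase. All samples were E14 mouse embryonic stem cells in N2B27 medium, a single cell line with no genetic change given in the labels. The groups were cells kept in 2iL (LIF, a cytokine, with CHIR99021 to inhibit GSK3 and PD0325901 to inhibit MEK), and cells collected 48 h or 96 h after 2iL was taken away. Each group had 2 samples, A and B, but 1 deposited list, so no spread between samples could be measured and no test between times was possible.

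PRDM14 and BLIMP1, the product of Prdm1, work with TFAP2C to set up primordial germ cells: BLIMP1 represses somatic genes, while PRDM14 restores pluripotency genes and represses DNA methylation and FGF signalling. In embryonic stem cells PRDM14, with its partner CBFA2T2 and Polycomb complexes, keeps the naive state by repressing the de novo DNA methyltransferase genes and FGF receptor genes. BLIMP1 is also known as the repressor that drives B cells to become plasma cells.

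The RefSeq promoter of Prdm1 is shown because it carries the region with the most tags (defined below) of both loci at 48 h and 96 h. By the authors' fold, another Prdm1 region was higher at 96 h, 19.5 against 18.7. It lies at chr10:44458699-44458998 on the minus strand (GRCm38.p6, the assembly of mm10) and holds 250 bases before and 50 after the annotated start. Capitals mark a CCAAT box read on the other strand.
Prdm1 promoter: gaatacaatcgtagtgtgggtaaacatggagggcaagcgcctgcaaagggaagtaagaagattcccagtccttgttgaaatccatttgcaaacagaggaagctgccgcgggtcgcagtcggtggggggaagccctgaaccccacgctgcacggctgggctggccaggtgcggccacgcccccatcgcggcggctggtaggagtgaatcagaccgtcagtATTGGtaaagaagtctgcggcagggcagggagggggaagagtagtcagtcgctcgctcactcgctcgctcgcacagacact

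The window holds 20 CpG, against a median of 7 over 32851 promoter windows of the same length, and its GC content is 59.7%. Of 15 motifs searched on both strands, the CCAAT box was the one with a match, starting at base 220 from the 5′ end, and 37.4% of all promoter windows hold a match to it. The letters of the factors themselves had no match: GGTCTCTAA, used for PRDM14, is in 0.256% of all windows. For PRDM1, GAAAGTGAA is in 0.581% and the GAAAGT within it in 14.3%. The other motifs without a match included ATGCAAAT (octamer, 1.74% of windows), TCAAGGTCA (ESRRB, 0.423%) and TTCCNGGAA (STAT3, 1.15%). Among general promoter motifs, the E-box CACGTG is in 7.15% of windows. The letters GGGCGG, known as the GC box, are in 35.7%. The TATA box, searched as TATAAA, is in 13.6%. None of these 3 had a match, nor had TTTGAT (TCF/LEF, 11.9%), ATCAAAG (TCF/LEF, 3.73%), GGGTGTGGC (KLF, 1.35%), CACCC (57.5%) or TAATCC (OTX2, 7.06%). Read on the other strand, ATCAAAG holds TTTGAT.

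The lists held 91228, 88810 and 78055 intervals for 2iL, 48 h and 96 h. The authors' fold enrichment and −log10 p at a summit were solved together for a whole number of tags at the summit and for a local background in tags per position, and a whole number within 0.02 was found for 100% of summits in each list. Below, "tags" is this number, with an exact Poisson 95% interval that covers counting error only, and fold is the authors' own value. The most frequent background of a list, its base background, was 14.2, 15.18 and 13.99 tags in 2iL, at 48 h and at 96 h. Ratios of tags between lists were scaled to it. Tags at a summit include the local background and fold is relative to it, so both can differ between times in opposite directions, and both are given. Region shares carry exact binomial 95% intervals, with the same limit, and these take adjacent regions to be independent. A region that is not listed fell short of the authors' limit, and is not shown to be closed. These are bulk samples, so fewer cells with an open region and less opening per cell cannot be told apart.

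Both loci had fewer regions at the later times. Prdm14 had 15, 10 and 6 regions in 2iL, at 48 h and at 96 h. Every one of its regions was in the 2iL list, which is the longest. With the lists shortened to equal length, 1 of 9 regions at 48 h and 1 of 6 at 96 h were not in the 2iL list. Prdm1 had 19, 17 and 7 regions, and 5 of its regions were not seen in 2iL. The regions of Prdm14 covered 10190, 7155 and 4684 bp in the 3 lists, and those of Prdm1 13408, 12924 and 4587 bp. Each gene had exactly 6 regions in all 3 lists, which is 40% of the regions of Prdm14 and 25.0% of those of Prdm1, against 35.9% of all regions.

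**Figure D1:**
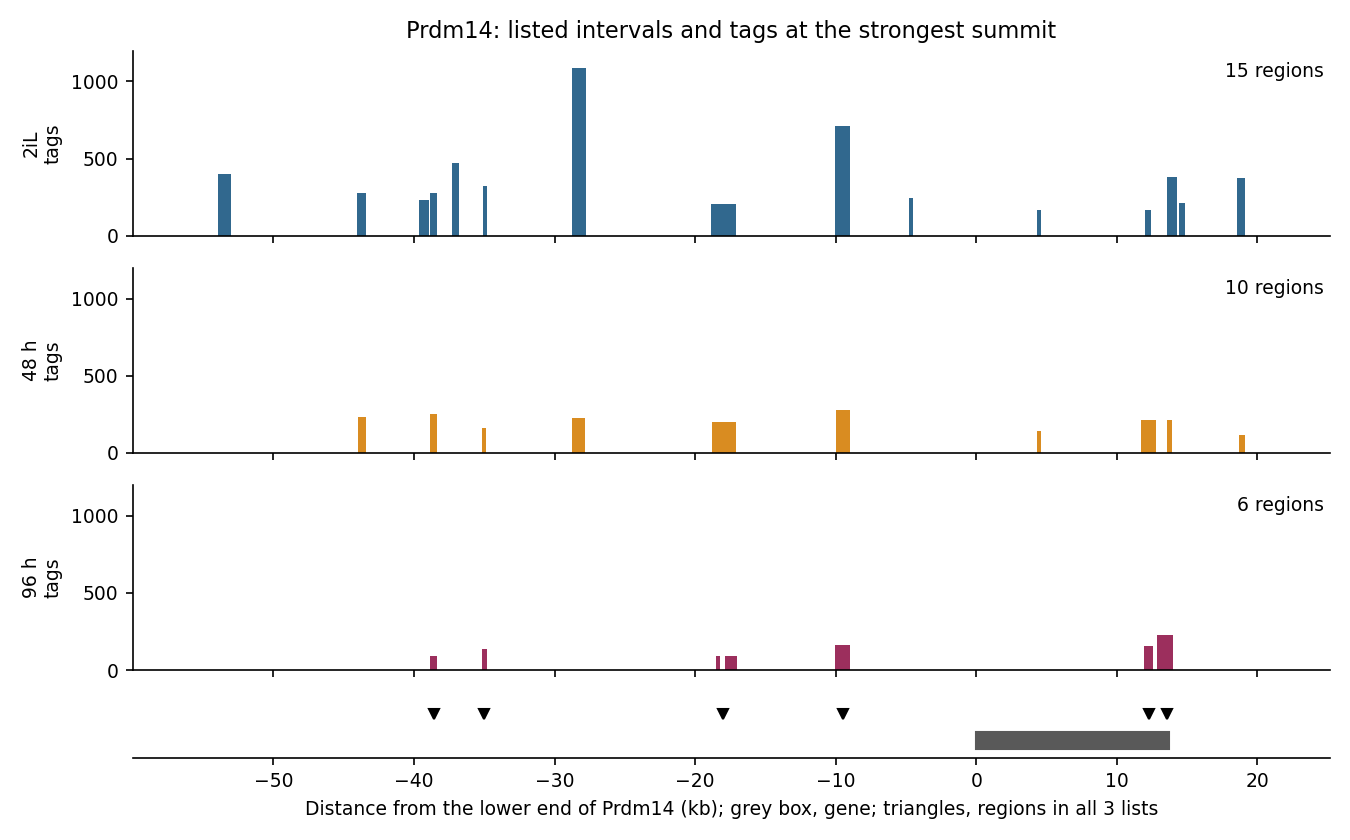
Intervals listed at Prdm14 in 2iL, at 48 h and at 96 h, drawn by distance from the lower end of the gene in kb (narrow intervals are widened to stay visible), with height giving tags at the strongest summit. The tallest interval reaches 1089 tags in 2iL, and the highest at 96 h reaches 228.

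Prdm14 (gene ID 383491, chromosome 1, 13113428 to 13127163 on mm10, 13.7 kb long) has most of its regions beyond its lower end. There, 10 regions were listed in 2iL, 6 at 48 h and 4 at 96 h. Inside the gene 3, 3 and 2 regions were listed, and beyond the upper end 2, 1 and 0.

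The strongest region of the locus in 2iL lay 28.3 kb beyond the lower end (13084650 to 13085682). It had 1089 tags (1025 to 1156) and a fold of 13.3 in 2iL, 226 tags (197 to 257) and a fold of 7.33 at 48 h, and was not listed at 96 h. Scaled to the base background, its tags at 48 h were 0.194 times those in 2iL. Its summit at 48 h was displaced by -134 bp from that in 2iL.

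The next strongest region lay 9.51 kb beyond the lower end (13103371 to 13104468) and was in all 3 lists. It had 711 tags (660 to 765) in 2iL, 275 (243 to 309) at 48 h and 160 (136 to 187) at 96 h, with intervals that do not overlap. Its summit stood at the same base at 96 h as in 2iL, and the listed width was 1050 bp at 96 h, against 1094 bp in 2iL. Its scaled tags at 96 h were 0.228 times those in 2iL, while its fold was 10.6 at 96 h, against 13.2 in 2iL. The local background beneath it was 14.2 tags at 96 h, against 53.0 in 2iL.

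Between 35.0 and 53.5 kb beyond the lower end stood a group of 6 regions. The outermost (13059449 to 13060395) had 399 tags and was listed in 2iL alone, as were a region of 228 tags 39.3 kb away and one of 470 tags 37.1 kb away. A region 43.7 kb away had 275 and 234 tags in 2iL and at 48 h. Those 38.6 and 35.0 kb away were in all 3 lists: the first had 276, 252 and 94 tags in 2iL, at 48 h and at 96 h, the second 325, 163 and 139. Their folds ran otherwise: 4.54, 7.80 and 6.29 for the first, and 5.02, 5.05 and 8.48 for the second. At both regions the tags were lowest at 96 h, while the fold was higher at 96 h than in 2iL.

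Closer to the gene, the region 18.0 kb beyond the lower end had 208, 198 and 93 tags in 2iL, at 48 h and at 96 h, against folds of 6.64, 8.42 and 6.27. It was listed as 2 intervals at 96 h. A region 4.67 kb beyond that end, with 244 tags, was listed in 2iL alone. Inside the gene, a region 4.49 kb from the lower end had 166 tags in 2iL and 140 at 48 h.

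At the upper end of Prdm14, a region spanning the end (13126263 to 13127741) stayed listed. It had 380 tags (343 to 420) in 2iL, 213 (185 to 244) at 48 h and 228 (199 to 260) at 96 h, with folds of 6.13, 5.12 and 5.84. Its summit at 96 h was displaced by -412 bp from that in 2iL, into the gene, and its interval was 1138 bp wide at 96 h, against 774 bp in 2iL. A second region 1.48 kb inside that end had 168, 213 and 153 tags with folds of 3.22, 5.23 and 3.98, and was the one persistent region with more scaled tags at 48 h than in 2iL (1.19 times). Beyond that end, a region 0.927 kb away had 210 tags in 2iL alone. Another, 5.13 kb away, had 375 tags and a fold of 6.53 in 2iL, and 117 tags and a fold of 3.83 at 48 h.

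At the 6 persistent regions of Prdm14, tags and fold gave different pictures. Scaled tags were lower at 96 h than in 2iL in 6 of 6, with a median ratio of 0.444 and a range of 0.228 to 0.924. The authors' fold was higher at 96 h than in 2iL in 3 of 6, with a median ratio of 1.09 and a range of 0.804 to 1.69. Of all 47176 regions in the 3 lists, 65.3% had a ratio of scaled tags above 1, with a median of 1.20, and 58.9% a ratio of folds above 1, with a median of 1.07. Among 2393 genes with at least 5 such regions, 0.961% had a lower median ratio of scaled tags than Prdm14, whereas 55.9% had a lower median ratio of folds. By fold, the persistent regions of Prdm14 were thus near the middle of the genes for 96 h over 2iL, but not in each step. For 48 h over 2iL their median ratio of folds was 1.14, and 74.1% of the genes had a lower one. For 96 h over 48 h it was 0.891, and 10.4% had a lower one. Over all regions in the 3 lists these medians were 1.03 and 1.05. The local background, to which fold is relative, was also lower at 96 h than in 2iL at all 6. At the region 9.51 kb beyond the lower end, tags and background were 711 and 53.0 in 2iL, and 160 and 14.2 at 96 h. At the region 1.48 kb inside the upper end they were 168 and 51.5, and 153 and 37.7. The part of the background in the lower tags was not tested.

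**Figure D2:**
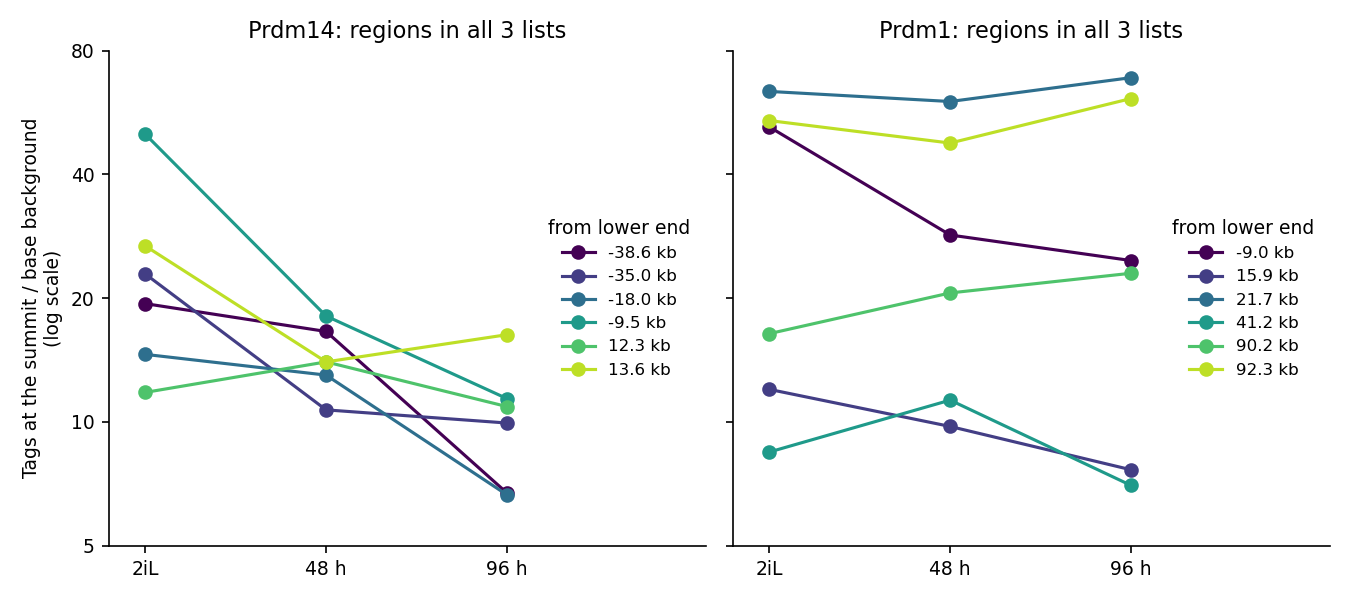
Tags at the strongest summit divided by the base background of the list (log scale) in 2iL, at 48 h and at 96 h for the 6 regions of each gene that were in all 3 lists, labelled by distance from the lower end of the gene. All 6 lines of Prdm14 are lower at 96 h than in 2iL, while 3 of 6 lines of Prdm1 are higher. Tags include the local background, and by fold 3 of 6 regions of Prdm14 and 5 of 6 of Prdm1 are higher at 96 h than in 2iL.

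The local background around the Prdm14 regions was lower at later times. Its median over the intervals was 56.6 tags per position in 2iL (20.9 to 80.9), 29.9 at 48 h (15.2 to 40.8) and 14.2 at 96 h (14 to 38.2). Over all intervals the medians were 23.3, 24.8 and 21. Of 1985 genes with at least 10 intervals in 2iL, 6.25% had a higher median than Prdm14, and of 5098 genes with at least 5 at 96 h, 78.7% did. The window over which the authors' caller took this background is not given in the sources used here. At 96 h the intervals still above 30 tags of background were the pair at the upper end of the gene, at 37.7 and 38.2. The neighbours of Prdm14 on both sides had medians near the base background in each list. These were 15.8, 15.2 and 16.6 tags in 2iL, at 48 h and at 96 h at Slco5a1, and 16.2, 15.2 and 14.1 at Ncoa2. Their highest intervals reached 116 tags at Slco5a1 (48 h) and 190 at Ncoa2 (96 h). A lower background at later times was not particular to Prdm14. At Atg5, a neighbour of Prdm1, the median was 34.2 in 2iL and 29.2 at 48 h, and near the base background at 96 h. At Prep, on the other side of Prdm1, it was 20.8 in 2iL and 19.2 at 96 h.

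**Figure D3:**
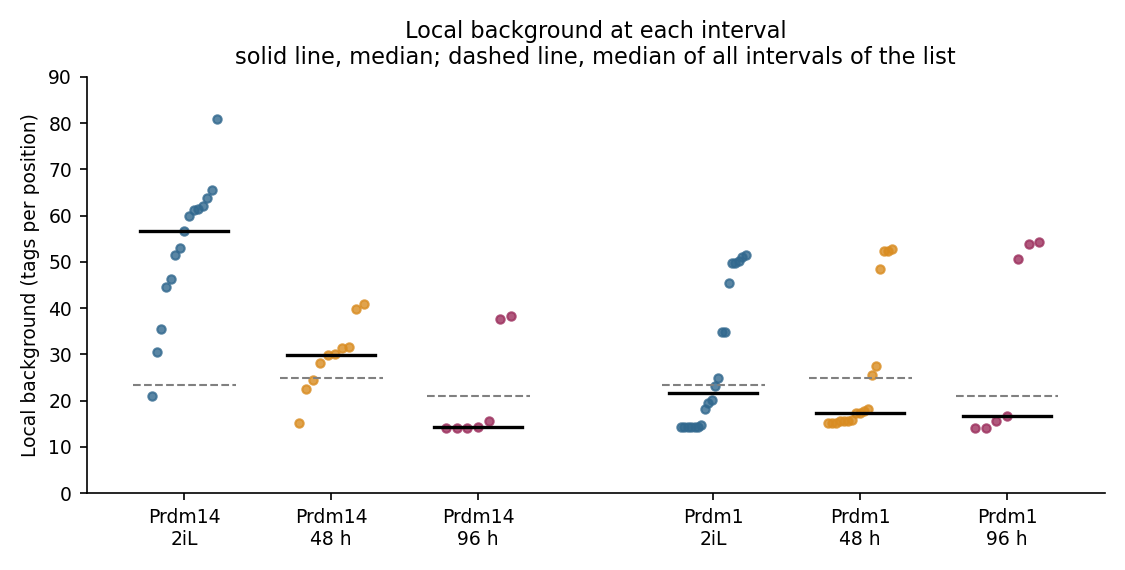
Local background in tags per position at each listed interval (points) of Prdm14 and Prdm1 in 2iL, at 48 h and at 96 h; solid lines are medians and dashed lines the medians of all intervals of the list. Prdm14 medians are 56.6, 29.9 and 14.2, and those of Prdm1 are 21.7, 17.4 and 16.7.

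Prdm1 (gene ID 12142, chromosome 10, 44437174 to 44528558 on mm10, 91.4 kb) is a longer gene, with 15 of its 24 regions inside it, 3 beyond its lower end and 6 beyond its upper end. RefSeq lists 6 transcripts for it, 1 curated and 5 predicted. The start in the promoter table lies 21.6 kb from the lower end and 69.8 kb from the upper end.

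**Figure D4:**
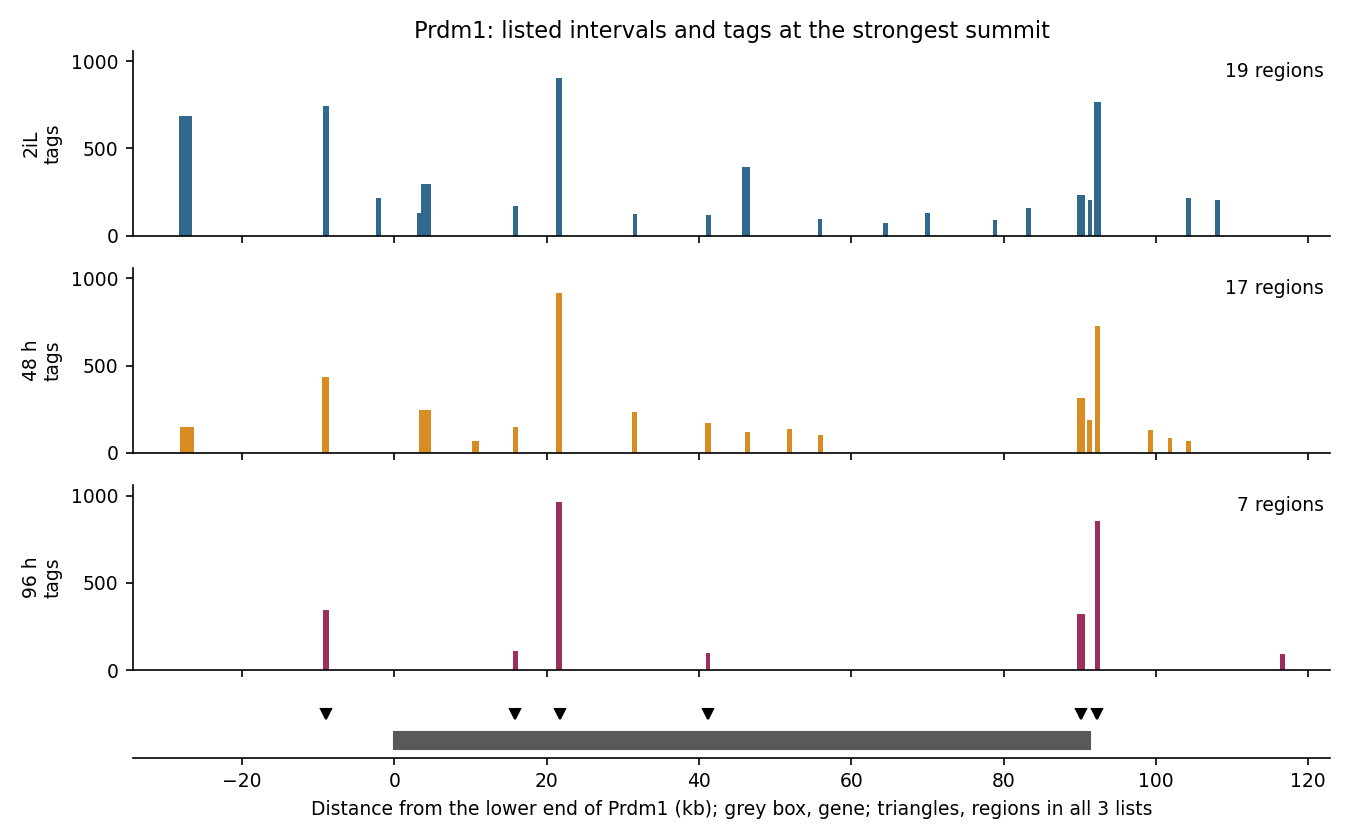
Intervals listed at Prdm1 in 2iL, at 48 h and at 96 h, drawn by distance from the lower end of the gene in kb (narrow intervals are widened to stay visible), with height giving tags at the strongest summit. Tall intervals at 21.7 and 92.3 kb are present in each list, and few of the others are left at 96 h.

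The region over the Prdm1 promoter printed above (44458463 to 44459253) had 904 tags (846 to 965) in 2iL, 914 (856 to 975) at 48 h and 963 (903 to 1026) at 96 h. These intervals overlap. It covered all 300 bases of the window in each list, with summits 36, 4 and 46 bp from the annotated start. Its fold of 17.2, 18.5 and 18.7 lay at percentiles 92.4, 93.8 and 91.2 of the lists. A promoter with an interval is common: 45.5% of the 32851 promoter windows were overlapped in all 3 lists.

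At the upper end of the gene, 3 regions lay within 2 kb. The strongest, 0.908 kb beyond the end (44528997 to 44529936), had 768, 724 and 856 tags in 2iL, at 48 h and at 96 h. The region 1.16 kb inside the end had 233, 313 and 322 tags, and was 1.40 times as high at 96 h as in 2iL on the scaled values. The region over the end itself had 204 tags in 2iL and 191 at 48 h, and was not listed at 96 h.

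The other persistent regions of Prdm1 were away from the promoter window and the upper end. The region 9.02 kb beyond the lower end (44427743 to 44428557) had 741 tags (689 to 796) in 2iL, 433 (393 to 476) at 48 h and 345 (310 to 383) at 96 h, and its scaled tags at 96 h were 0.473 times those in 2iL. Its fold was higher at 96 h, 19.5, than in 2iL, 16.0, and lay at percentile 92.9 of the list at 96 h, against 89.6 in 2iL. Those 15.9 and 41.2 kb inside the lower end were below the median tags of each list, with 171, 148 and 107 tags and with 120, 171 and 98 tags in 2iL, at 48 h and at 96 h. Over the 6 persistent regions, scaled tags at 96 h were above those in 2iL at 3, all of them at the promoter window or the upper end. The median ratio of scaled tags was 0.955, and 27.7% of the 2393 genes had a lower one. Fold was higher at 96 h than in 2iL at 5 of 6, with a median ratio of 1.07, and 49.5% of the genes had a lower one.

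At 3 Prdm1 regions scaled tags at 48 h were at most 0.297 times those in 2iL. Fold was lower there too, and no interval was listed at 96 h. The region 27.3 kb beyond the lower end (44408885 to 44410849) had 688 tags (638 to 741) in 2iL and 147 (124 to 173) at 48 h, with summits 1182 bp apart and a fold of 8.04 at 48 h, against 13.2 in 2iL. The region 45.2 kb inside the upper end (44482888 to 44483854) had 393 tags and a fold of 15.2 in 2iL, and 120 tags and a fold of 7.32 at 48 h. The region 12.9 kb beyond the upper end, near the median tags of the list in 2iL, had 217 tags and a fold of 9 in 2iL, and 69 tags and a fold of 4.33 at 48 h. Their scaled tags at 48 h were 0.200, 0.286 and 0.297 times those in 2iL.

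Not all regions followed that order. The region 31.6 kb from the lower end (44468468 to 44469034) had more tags at 48 h, 236 (207 to 268), than in 2iL, 123 (102 to 147), a scaled ratio of 1.79, and was not listed at 96 h. The regions 3.99 kb from the lower end and 35.4 kb from the upper end differed less, with 244 tags at 48 h against 296 in 2iL, and 103 at 48 h against 93 in 2iL. The region over the upper end also differed less. It had 191 tags and a fold of 3.59 at 48 h, against 204 and 4.05 in 2iL.

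Of the 6 regions of Prdm1 found in 2iL alone, 4 stood side by side over 19.0 kb inside the upper part of the gene (44501549 to 44520597). They had 74, 131, 89 and 159 tags. At 48 h and at 96 h the 33.5 kb between the flanking regions held no listed interval. The other 2 were a region of 216 tags 2.08 kb beyond the lower end and one of 206 tags 16.7 kb beyond the upper end. The 4 regions listed at 48 h alone had 66 to 136 tags, and lay 10.6 kb from the lower end and 39.5 kb from the upper end inside the gene, and 7.90 and 10.5 kb beyond the upper end. The 1 region listed at 96 h alone, 25.2 kb beyond the upper end, had 93 tags.

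In the comparison of 48 h with 2iL, when cells leave the naive state, both loci lost about the share that all regions lost. Prdm14 lost 5 of 15 regions, 33.3% (11.8 to 61.6), and Prdm1 6 of 19, 31.6% (12.6 to 56.6), against 33.2% of all 90260 regions. Prdm14 gained 0 of its 10 regions at 48 h (0 to 30.8%), and Prdm1 gained 4 of 17, 23.5% (6.81 to 49.9), against 31.2% of all regions. The interval of Prdm14 ends just below that share. With lists of equal length this no longer held: 1 of 9 was gained, 11.1% (0.281 to 48.2), against 30.8% of all regions. Of the lost regions, 4 of 5 at Prdm14 and 4 of 6 at Prdm1 had the top score of 1000 in the 2iL list, against 58.3% of all lost regions.

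Between 48 h and 96 h, Prdm1 lost 11 of 17 regions, 64.7% (38.3 to 85.8), and Prdm14 4 of 10, 40% (12.2 to 73.8), against 30.7% of all regions. Prdm1 gained 1 of 7, 14.3% (0.361 to 57.9), and Prdm14 0 of 6 (0 to 45.9%), against 21.2%. The interval of Prdm1 lies above the share of all regions, the one of 12 member shares to do so. With regions at or above the median −log10 p of the list alone, this no longer held: 2 of 6 were lost, 33.3% (4.33 to 77.7), against 8.56% of all regions. With the 48 h list divided into 4 equal parts by −log10 p and each region given the loss of all regions in its part, the share would be 36.4% for Prdm1 and 35.0% for Prdm14. By −log10 p, 9 of the 11 lost regions of Prdm1 were in the 2 lower parts of the 48 h list. By the authors' score, 7 of the 11 had the top value of 1000, or 63.6%, against 53.6% of all lost regions. The lost regions of Prdm1 had a median of 134 tags at 48 h (66 to 244) and the kept ones 373 (148 to 914), against 133 and 314 over all regions.

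Across the whole course, 96 h against 2iL, Prdm1 lost 13 of 19 regions, 68.4% (43.4 to 87.4), and Prdm14 9 of 15, 60% (32.3 to 83.7), against 44.9% of all regions. Both intervals include the share of all regions. Regions over 1 kb from a gene end, to which most of these belong, were lost at 51.6%. The shares at the loci's mix of strengths were 45.3% for Prdm1 and 44.6% for Prdm14. Prdm1 gained 1 of 7 regions, 14.3% (0.361 to 57.9), and Prdm14 0 of 6 (0 to 45.9%), against 35.5% of all regions. The intervals of both gains include that share too. Of 1943 genes with at least 10 regions in 2iL, 13.8% lost a larger share than Prdm1 and 26.0% a larger share than Prdm14, with a median of 50%. At Prdm14 the regions lost by 96 h had a median of 275 tags in 2iL (166 to 1089), and that of the kept regions 300 (168 to 711), against 157 and 290 over all regions. Tags include the local background, whose median in 2iL was 56.6 at Prdm14, against 23.3 over all intervals. By fold the Prdm14 intervals in 2iL were lower, with a median of 6.13, against 8.29 over all intervals. Median folds of lost and kept regions were not computed. At Prdm1 the lost regions had a median of 204 tags in 2iL (74 to 688) and the kept ones 487 (120 to 904).

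**Figure D5:**
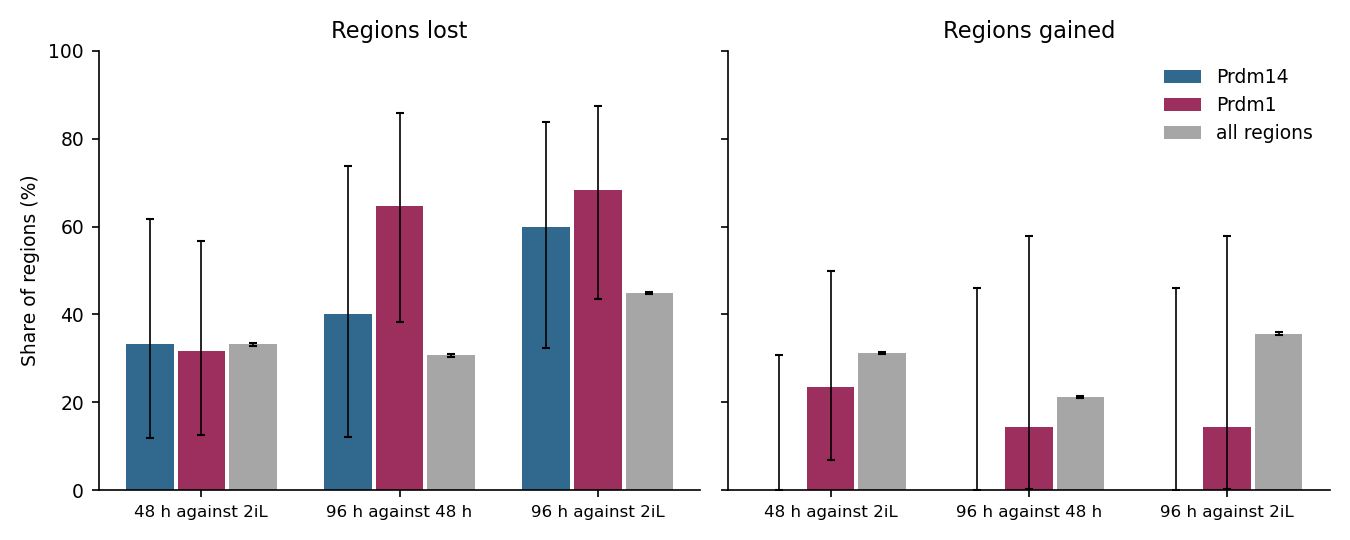
Share of regions lost (of the earlier list) and gained (of the later list) in % for Prdm14, Prdm1 and all regions in 3 comparisons, with exact binomial 95% intervals. The bar of Prdm1 for loss at 96 h against 48 h stands at 64.7%, and Prdm14 has no gained region in these comparisons of the whole lists.

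At 3 of the 4 edges of the selection, the intervals just inside and just outside come from different lists, so their folds are not compared. The outermost Prdm14 interval below the gene had a fold of 11.0, and the next one further out (13052050 to 13052594), nearer to Slco5a1, had a fold of 12.9, both in 2iL. Above the gene, the last interval inside (13132111 to 13132538) had a fold of 3.83 at 48 h, and the next (13134128 to 13134742), nearer to Ncoa2, 7.98 in 2iL. Below Prdm1 the first interval inside had a fold of 13.2 in 2iL, and the next outside (44400283 to 44401032), nearer to Atg5, 12.0 at 48 h. Above Prdm1 the last inside had 6.27 at 96 h, and the next lay 157 kb away with a fold of 16.8 in 2iL. An interval near a gene end need not act on that gene.

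The neighbouring genes had losses of like size. At 96 h against 2iL, Slco5a1 lost 8 of 13 regions, Ncoa2 11 of 18, Atg5 8 of 15 and Prep 16 of 22. These are 61.5%, 61.1%, 53.3% and 72.7%, against 44.9% of all regions and 51.6% of those over 1 kb from a gene end. Gains differed in number: Ncoa2 gained 6 of 13 regions and Prep 4 of 10, Atg5 1 of 8 and Slco5a1 0 of 5, against 35.5% of all regions.

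Within the PRDM family of 15 genes, all of which had regions, 9 lost more regions than they gained at 96 h against 2iL, 5 gained more and 1 was even. Over all 18250 genes with a region, 44.8% lost more and 24.5% gained more. The family lost 45.7% of its 129 regions of 2iL and gained 34.6%, close to the 44.9% and 35.5% of all regions. These counts include Prdm14 and Prdm1, both among the 9. Together they lost 22 of 34 regions and gained 1 of 13. Shares of the family without them were not computed. Prdm11 gained 9 of 17 regions and lost 2 of 10, and Prdm8, a neural regulator, had 5 regions at 96 h, against 2 in 2iL. Prdm16, known from brown fat and haematopoietic stem cells, gained 10 and lost 8, and Prdm2 lost 8 of 15. Prdm9, which sets meiotic recombination sites, lost 2 of 6 and gained 0.

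Among 16 genes that work with PRDM14 and BLIMP1 in germ cells or naive cells, 12 lost more regions than they gained at 96 h against 2iL and 2 gained more. They lost 93 of 168 regions, 55.4%, against 44.9% of all regions and 51.6% of those over 1 kb from a gene end. They gained 32 of 107, 29.9%, against 35.5% of all regions. A large part of both counts lay at Esrrb, which lost 20 of 28 regions and gained 8, and at Sox2, which lost 12 of 21 and gained 8. Shares without these genes were not computed. Tfap2c, the third factor of the germ cell network, lost 13 of 23 regions and gained 2, and no longer had a region within 1 kb of a gene end at 96 h. Cbfa2t2, the partner of PRDM14, lost 5 of 10 and gained 1. Kit, a receptor of migrating germ cells, lost 9 of 14, and Dppa4 had 0 regions at 96 h, against 5 in 2iL. The 2 genes that gained more were Pou5f1 and Lin28a, each with 2 regions gained and 1 lost. Nanos3 and Dnd1 were even.

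Of 7 genes known to be repressed by PRDM14 in mouse embryonic stem cells, 4 gained more regions than they lost at 96 h against 2iL, 2 lost more and 1 was even. They gained 32 of 62 regions, 51.6%, against 35.5% of all regions, but 20 of these lay at the FGF receptor gene Fgfr2 (23 regions at 96 h, against 6 in 2iL). Without Fgfr2, the other 6 genes gained 12 of 39, 30.8%. Dnmt3a gained 6 of 14 and lost 4 of 12. Dnmt3b gained 2 of 10 and lost 1 of 9, while Fgfr1 lost 6 of 12 and gained 2. The 7 genes together lost 17 of 47 regions, 36.2%, against 44.9% of all regions. The inducing signals and their effectors were divided, with 5 of 12 genes losing more and 4 gaining more, with 46.5% of 86 regions lost and 43.9% gained, against 44.9% and 35.5% of all regions. Bmp4, which induces germ cell fate, lost 8 of 13 and gained 6, and Otx2, which restrains it, lost 1 of 8 and gained 6. The 10 later germ line genes had 22, 22 and 18 regions in 2iL, at 48 h and at 96 h. Of these genes, Nanos2 had none.

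Genes most like Prdm14 in the shares of regions over the 7 combinations of lists were Dnajb6, Pou2f3, Loxhd1, Anxa11 and Cyp4f39, at Euclidean distances of 0.05 to 0.08 (median of 3085 genes of like region number, 0.37). Dnajb6 had 11, 7 and 4 regions in 2iL, at 48 h and at 96 h. Those most like Prdm1 were Wwc2, D430041D05Rik, Nudt4, Ap3b1 and Tcim, at 0.08 to 0.11 (median of 1373 genes, 0.32). Wwc2 had 26, 24 and 13 regions. The measure rests on 3 lists.

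Most markers of the labelled cells had a listed region near a gene end, and so did most markers of other cell types. A region within 1 kb of a gene end was listed for 11, 12 and 12 of 12 pluripotency markers in 2iL, at 48 h and at 96 h. The one missing in 2iL was Esrrb, which had 28 regions in that list but none within 1 kb of a gene end. A region that near a gene end was also listed for 4, 5 and 6 of 7 extraembryonic endoderm markers. For trophoblast it was 6, 6 and 5 of 7 markers, and for fibroblast 7, 6 and 6 of 8. Gata6, Cdx2 and Col1a1 were among them in every list. The share of all genes with such a region was not computed. By another measure, 49.0%, 51.1% and 49.8% of all 32851 promoter windows were overlapped in 2iL, at 48 h and at 96 h. An open gene end is not expression, and the part of other cell types in the results was not tested.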

How the data were processed

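The data are 3 peak lists, 1 per group for samples A and B together, per the labels. Per the submitters' processing notes, BWA, Picard, SAMtools and bcl2fastq 2.20.0.422 were used, with mm10. Not given in the sources used here are the peak caller with its settings, transposase offset correction and duplicate removal, which could change the tags and the weak intervals listed. The deposited fold enrichment (a linear ratio) and the deposited −log10 p belong to a summit, and the deposited score (540 to 1000) to an interval. Deposited q values were not used, and 0 columns of single samples were left unused. Where an interval had several summits, the one highest in −log10 p was taken.

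Tags k and background b were solved from fold = (k + 1) / (b + 1) and a Poisson tail. This was tested on simulated data made with the same formulas, as were the counts of lost regions. Sequencing depth is unknown, and the base background stands in for it. A region belonged to the gene of its strongest interval, and the distance used either end of 21900 protein-coding genes. The gene table has no strand or exons, so positions within genes are not annotated further. Promoter sequences are from RefSeq. The promoter sequences used here held no entry for Prdm14, so its promoter could not be shown or searched.

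The members and gene lists were chosen with earlier results of these data known. Named genes were the members, their neighbours, list members with a count, and for each member the 5 genes with the most similar shares of regions over 7 combinations of lists, among genes with a region number within 1.5 times. The list members given with values were chosen with those values known. Nothing in the labels says whether A and B were separate cultures. Tools were Python 3.11.15, NumPy 2.4.6, pandas 2.3.3 and SciPy 1.17.1. The 7 alternatives were overlap of 50%, stronger regions, lists of equal length, 50 kb, nearest gene body, summit in place of midpoint and a gap of 500 bp. The authors' fold in place of scaled tags was added after seeing the data.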

Additional observations from a re-analysis of the deposited data

How the results depend on the processing

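No paired analysis was possible because each group has 1 list for both samples, and for the same reason no sample could be left out. For Prdm14, the 40 alternative shares stayed inside the binomial interval of the main value, which is wide. Lists of equal length gave 11.1% gained (1 of 9) at 48 h against 2iL and 16.7% (1 of 6) at 96 h against 2iL, in place of 0, and a gap of up to 500 bp gave 20% lost at 48 h against 2iL, in place of 33.3%. With stronger regions only, no region at 96 h was left, so 2 shares had no value. For Prdm1, 38 of 42 stayed inside theirs. The exceptions came from counting only regions at or above the median −log10 p of their list: 33.3% (2 of 6) lost at 96 h against 48 h, and 0% gained at 48 h against 2iL, at 96 h against 48 h and at 96 h against 2iL. For all regions, whose intervals are narrow, the same setting gave 16.1% lost and 10.9% gained at 48 h against 2iL, 8.56% and 4.80% at 96 h against 48 h, and 27.0% and 15.0% at 96 h against 2iL. Lists of equal length gave 30.9% and 30.8%, 25.0% and 24.9%, and 40% and 39.8% in the same order. Counting a gap of up to 500 bp as present gave 31.1% and 28.6%, 28.7% and 19.5%, and 42.7% and 32.7%. Each of these settings changes which regions are counted by its construction. In an alternative chosen after seeing the data, the authors' fold in place of scaled tags turned the direction at the regions in all 3 lists, 96 h over 2iL: the log2 median ratio was 0.13 in place of -1.17 at Prdm14 and 0.10 in place of -0.07 at Prdm1. The fold is relative to the local background by construction. The regions of Prdm1 listed at 48 h alone had 66 to 136 tags and the one at 96 h alone 93, against medians of 228 and 217 tags over those lists. Their absence elsewhere is not shown to be closure.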
